A study of Homo sapiens with 2 samples.

Results

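This report describes 307 of 9083 cell barcodes of 1 pooled single-cell library, and how the cells among them with the most and the least mRNA for 4 MHC class II genes differed in all other genes. The cells carried 1 of 2 pairs of hashtags, which are antibody-bound barcodes that mark the sample a cell came from. A barcode was taken when its 2 highest of hashtags HTO2 to HTO9 were HTO4+HTO8 or HTO4+HTO9, with at least 20 counts of the second and at least 4 times as many as of the next hashtag. It also needed 500 detected genes or more and at most 20% mitochondrial molecules. These rules left 197 cells of HTO4+HTO8, out of 565 barcodes with that pair, and 110 cells of HTO4+HTO9, out of 275. Most of the barcodes lost were over the mitochondrial limit, which 366 barcodes of HTO4+HTO8 and 163 of HTO4+HTO9 exceeded. Each cell's score was its number of unique molecular identifiers (UMIs, counted mRNA molecules) of HLA-DRA, HLA-DPA1, HLA-DPB1 and CD74 per 10000 UMIs. The members were thus chosen by measured values: within each pair the cells were ranked by this score and cut into 3 groups of like size, and the highest group (class II-high cells) was set against the lowest (class II-low cells). No value of the 4 score genes is a result. There were 65 class II-high and 65 class II-low cells in HTO4+HTO8, and 36 of each in HTO4+HTO9.

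The cells were OVCAR5, an established human ovarian carcinoma line that carries an IFNg-sensing reporter. They were grown as tumours in NSG-B2m-/- mice, which lack T cells, B cells and NK cells of their own but keep some myeloid cells. Cells positive for CFP, which the labels describe as bystander tumour cells, were sorted from the pooled tumours. Tumours were injected with the cytokines IFNg (interferon gamma), TNFa (tumour necrosis factor alpha) or a combination of these. Of the 13 tumours in the pool, 3 had TNFa for 6 h (10 ng/ml), 2 had both cytokines for 6 h (IFNg at 100 and TNFa at 10 ng/ml), and 3 had IFNg alone (100 ng/ml), 2 of them for 24 h and 1 for 48 h. The unexposed tumours numbered 2 at 6 h, 2 at 24 h and 1 at 48 h. The treatment field of each library names a single condition, which is at odds with that pool. No label or file used here says which tumour a hashtag pair marks, so no value below is tied to a cytokine, a dose or a time. Because there was 1 library, cells are not replicates and no test was made. The 2 pairs serve as 2 separate looks at the same contrast. They share the library, the sort and hashtag HTO4, and p-values are not given.

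MHC class II molecules are surface proteins, made of an alpha and a beta chain, that show peptides from the endosome to CD4+ T cells. CD74, the invariant chain, guides newly made class II molecules to the endosome, where HLA-DM exchanges its remnant for peptides and HLA-DO restrains HLA-DM. Dendritic cells, macrophages and B cells carry class II at all times, and epithelial and carcinoma cells can acquire it after IFNg, which acts through IRF1 and other factors on the gene for CIITA. CIITA does not bind DNA itself: it joins RFX and NF-Y, which sit on short elements called the X and Y boxes upstream of class II genes.

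These elements are shown for the 5 class II genes whose promoter window held a match to the X-type letters given below. All 5 are outside the score. The sequences are RefSeq windows of GRCh38.p14, taken 250 bases before to 50 bases after the gene start, and are written 5' to 3' on the strand of the gene, which is the minus strand of chromosome 6 for all 5 genes. Capitals mark an X-type match (AGNNACNGATG, where N is any base) and a Y-type match (GATTGG, or CCAATC on the other strand). The whole window of HLA-DRB1 is chr6:32589799-32590098, and the others are the stretch around the matches, at chr6:32530363-32530420 for HLA-DRB5, chr6:32666731-32666788 for HLA-DQB1, chr6:32953162-32953220 for HLA-DMA and chr6:32941035-32941126 for HLA-DMB.
HLA-DRB1: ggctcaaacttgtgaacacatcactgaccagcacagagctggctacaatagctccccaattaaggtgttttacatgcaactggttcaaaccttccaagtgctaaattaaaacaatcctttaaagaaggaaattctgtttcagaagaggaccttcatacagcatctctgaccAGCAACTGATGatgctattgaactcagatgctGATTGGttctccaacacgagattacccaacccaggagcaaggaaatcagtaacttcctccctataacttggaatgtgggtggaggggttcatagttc
HLA-DRB5: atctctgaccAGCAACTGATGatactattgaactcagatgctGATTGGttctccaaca
HLA-DQB1: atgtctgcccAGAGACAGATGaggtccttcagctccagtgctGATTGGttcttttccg
HLA-DMA: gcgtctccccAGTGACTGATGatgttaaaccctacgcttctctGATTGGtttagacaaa
HLA-DMB: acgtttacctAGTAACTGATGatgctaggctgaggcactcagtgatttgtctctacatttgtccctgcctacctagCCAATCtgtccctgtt

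In HLA-DRB1, HLA-DRB5 and HLA-DQB1 the X-type and Y-type matches lay 21 bases apart, and in HLA-DMA 22 bases apart. In HLA-DMB the Y-type match was on the other strand, 55 bases from the X-type match. Searched on both strands, the X-type letters were in 287 of 35116 promoter windows (0.817%) and in 5 of the 13 class II genes that the table holds, while the Y-type letters were in 15.1% of windows and in 10 of those 13 genes. Both on the same strand, 10 to 30 bases apart, were in 5 windows (0.0142%), which belong to HLA-DMA, HLA-DQB1, HLA-DRB1, HLA-DRB5 and CLEC12A. The letters and the spacing were chosen with these windows in view, and a match is a description of letters, not a bound site.

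The score formed a range and not separate classes of cells, as the plot of the score cell by cell shows. In HTO4+HTO8 it ran from 0 to 162 UMIs per 10000 with a median of 34.6, and the median was 64.3 in class II-high cells and 14.8 in class II-low cells. In HTO4+HTO9 it ran from 2.299 to 133 with a median of 37.0, and the median was 63.0 in class II-high cells and 15.6 in class II-low cells. The cut between high and middle cells fell between 49.6 and 47.9 in HTO4+HTO8 and between 47.37 and 47.36 in HTO4+HTO9, and the cut between middle and low cells between 23.3 and 22.3 in HTO4+HTO8 and between 26.9 and 26.4 in HTO4+HTO9. Within 5 units of the upper and lower cut lay 26 and 39 cells of HTO4+HTO8, and 18 and 18 cells of HTO4+HTO9.

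**Figure D1:**
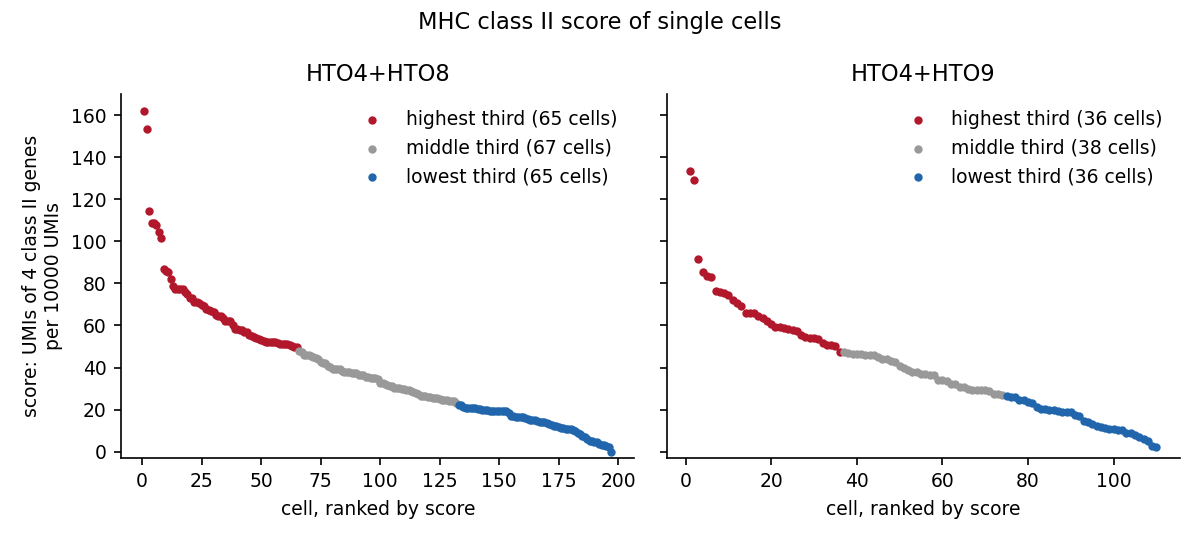
MHC class II score of every cell, as UMIs of HLA-DRA, HLA-DPA1, HLA-DPB1 and CD74 per 10000 UMIs (vertical axis), with the cells of each hashtag pair ranked by score (horizontal axis). Each point is 1 cell, coloured by group (red high, grey middle, blue low); the scores fall without a gap at either cut, and only 1 cell of HTO4+HTO8 had a score of 0.

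Among the 13 hashtag pairs with 50 cells or more, HTO4+HTO9 and HTO4+HTO8 had the highest median scores. HTO2+HTO8 followed at 14.96, HTO2+HTO9 at 10.3 and HTO3+HTO6 at 3.88, the others were at 1.89 or below and 5 of them at 0. The pairs HTO4+HTO6 and HTO4+HTO7, at a median of 0, had 90th percentiles of 3.99 and 2.89. The 10th percentile was 11.0 in HTO4+HTO8 and 10.9 in HTO4+HTO9, so most class II-low cells were above those 90th percentiles. Free mRNA in the droplets was not measured, and its part in any score was not tested.

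The cells compared had similar depth in HTO4+HTO8, with a median of 7182 UMIs and 2537 genes in class II-high cells and 6662 UMIs and 2445 genes in class II-low cells. In HTO4+HTO9 the class II-high cells were deeper, with 7536.5 UMIs and 2633.5 genes, against 5548.5 UMIs and 1948.5 genes in class II-low cells. Median mitochondrial shares were 14.9% and 14.4% in HTO4+HTO8 and 13.4% and 14.9% in HTO4+HTO9 (class II-high cells first in each). Hashtag counts were not even between the groups. Their median per cell, over HTO2 to HTO9, was 1807 in class II-high and 1204 in class II-low cells of HTO4+HTO8. In HTO4+HTO9 it was 2028 and 1118.5. Without the 4 score genes, the sums compared were 472007 and 469419 UMIs in HTO4+HTO8 and 268033 and 219712 UMIs in HTO4+HTO9. Levels are given as UMIs per 1000000 of these sums (CPM). A gene was compared when it had 50 UMIs or more over the high and low cells of each pair, which 1447 genes had, and is called higher or lower when its CPM ratio was 1.5-fold or more in the same direction in both pairs. This minimum is counted on the cells compared, so a gene can pass it through the group where it is high. Brackets after a ratio give its exact 95% counting interval, which covers the error of counting molecules only.

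Across the 1447 genes compared, 53 were higher in class II-high cells of both pairs (3.66%) and 22 were lower (1.52%). In HTO4+HTO8 alone 8.22% were at least 1.5-fold higher and 5.11% lower, and in HTO4+HTO9 alone 11.0% and 6.98%. The log2 ratios had the same sign in both pairs for 932 genes (64.4%), with medians of 0.02 in each pair. With a minimum of 25 UMIs in the middle cells of each pair, 48 of the 53 and 18 of the 22 were compared. All of those were still called by construction, because this minimum changes which genes are compared and not their ratios. It was added after the data had been seen. Among the called genes it left out were GBP5, RSAD2, OAS2, AKAP12, MYH9, TXNRD1 and TST. Of the 53 higher genes, 27 belonged to 1 of the gene lists used here and 6 were HLA genes, and 2 of the 22 lower genes were in a list. These numbers only describe the calls, because the share of all 1447 genes that are in a list was not counted.

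**Figure D2:**
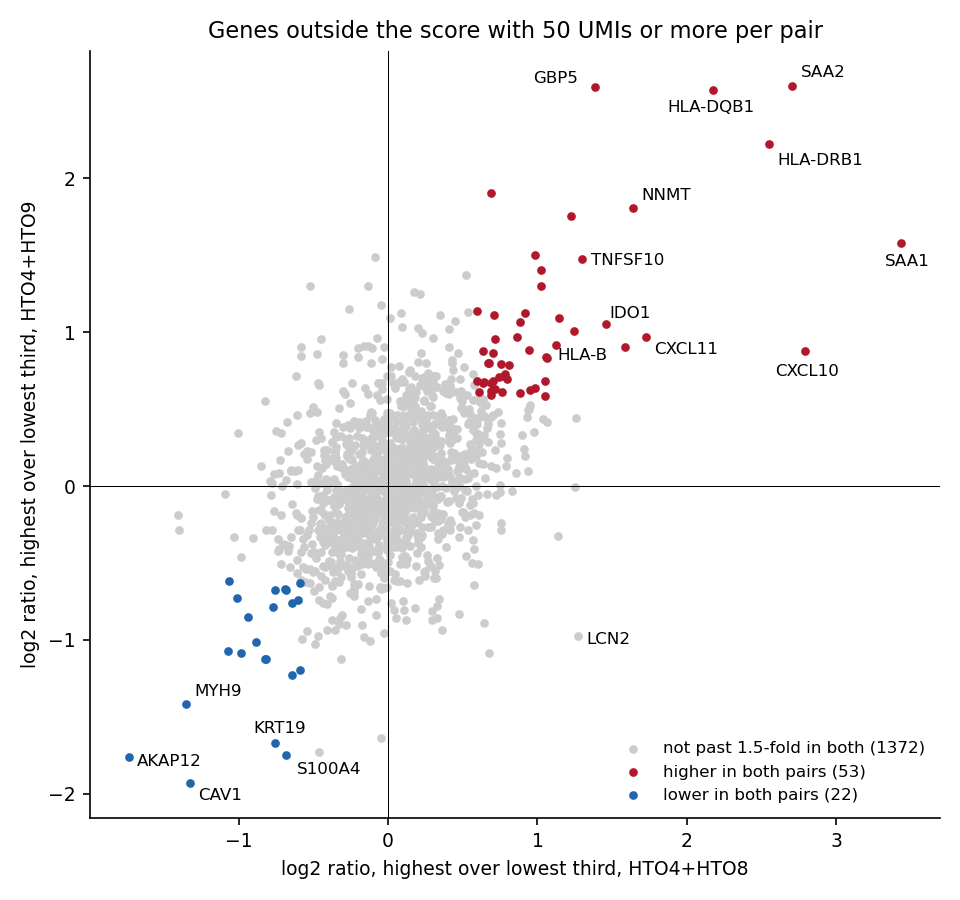
Log2 ratio of CPM in class II-high over class II-low cells for the 1447 genes compared, in HTO4+HTO8 (horizontal axis) and HTO4+HTO9 (vertical axis). Each point is 1 gene; red marks the 53 genes higher and blue the 22 lower by 1.5-fold or more in both pairs, and the labelled genes are described in the text.

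The class II genes that were not in the score went with it. Summed over all 10 of them, class II-high cells of HTO4+HTO8 had 994 UMIs (2106 CPM) and class II-low cells 206 UMIs (439 CPM), a ratio of 4.80 (4.13 to 5.60). In HTO4+HTO9 the sums were 467 UMIs (1742 CPM) in class II-high cells and 108 UMIs (492 CPM) in class II-low cells, a ratio of 3.54 (2.87 to 4.41). Middle cells lay between, at 995 CPM in HTO4+HTO8 and 1284 CPM in HTO4+HTO9. Cell by cell, the median was 21.0 UMIs per 10000 in class II-high and 3.88 in class II-low cells of HTO4+HTO8, and 15.4 and 4.23 in HTO4+HTO9. The Spearman correlation between this sum and the score was 0.82 over 197 cells and 0.75 over 110 cells. Both measures come from the same cells and are scaled by the same UMI totals, so the correlation is a description.

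HLA-DRB1, the main DR beta chain (chromosome 6, 32578769 to 32589848, GRCh38, minus strand), was at 1060 CPM in class II-high and 181 CPM in class II-low cells of HTO4+HTO8 (ratio 5.86, 4.65 to 7.47). In HTO4+HTO9 HLA-DRB1 was at 955 CPM in class II-high and 205 CPM in class II-low cells (4.66, 3.39 to 6.55), and its middle cells had 526 CPM in HTO4+HTO8 and 607 CPM in HTO4+HTO9. HLA-DQB1, the DQ beta chain, was at 280 CPM in class II-high and 61.8 CPM in class II-low cells of HTO4+HTO8 (4.53, 3.01 to 7.02), and at 190 and 31.9 CPM in those of HTO4+HTO9 (5.97, 2.70 to 15.6). HLA-DMA, a chain of the peptide exchanger HLA-DM, was at 320 CPM in class II-high and 107 CPM in class II-low cells of HTO4+HTO8 (3.003, 2.17 to 4.22) and at 272 and 146 CPM in those of HTO4+HTO9 (1.87, 1.22 to 2.93). These 3 genes, past 1.5-fold in both pairs, were the ones with enough UMIs to be compared, and a class II gene reaches that minimum more easily where it is high. HLA-DRB1 and HLA-DQB1 have close copies, and reads of this polymorphic region may have been lost or shared between them, so the split among DR beta and among DQ genes is uncertain.

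The other 7 class II genes had too few UMIs to be called and are given as raw UMIs. HLA-DMB, the partner chain of HLA-DMA, had 51 UMIs in class II-high and 17 in class II-low cells of HTO4+HTO8, and 26 and 8 in HTO4+HTO9. HLA-DOA, a chain of the HLA-DM inhibitor HLA-DO, had 26 UMIs in class II-high and 1 in class II-low cells of HTO4+HTO8, and 18 and 3 in HTO4+HTO9. HLA-DOB, its partner, had 8 and 3 UMIs in HTO4+HTO8, and 6 and 0 in HTO4+HTO9. Each had more UMIs in class II-high cells. The DQ alpha chain HLA-DQA1 had 38 UMIs in class II-high and 5 in class II-low cells of HTO4+HTO8, and 11 and 2 in HTO4+HTO9; its close copy HLA-DQA2 had 39 and 9, and 14 and 4. HLA-DQB2 had 9 and 1 UMIs in HTO4+HTO8, and 2 and 0 in HTO4+HTO9. HLA-DRB5 had 39 UMIs in class II-high and 6 in class II-low cells of HTO4+HTO8, and 10 and 7 in HTO4+HTO9. The counting intervals of its ratio overlapped (2.72 to 18.7 in HTO4+HTO8 and 0.402 to 3.62 in HTO4+HTO9). A difference between the pairs was not tested.

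**Figure D3:**
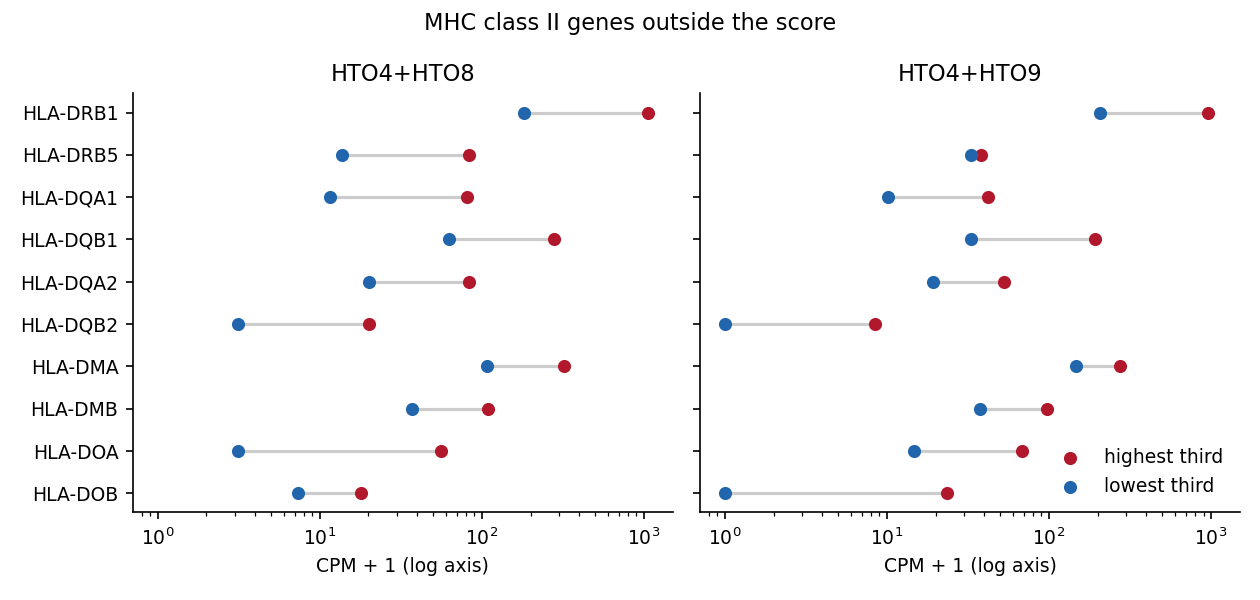
Level of the 10 MHC class II genes outside the score in class II-high cells (red) and class II-low cells (blue) of each hashtag pair, as CPM + 1 on a log axis shared by both panels. Each point is 1 sum over the cells of a group; the red point lies to the right of the blue one in every row, and the gap is smallest for HLA-DRB5 in HTO4+HTO9.

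The score genes themselves differed by construction, and their values are given only as a description. HLA-DRA (chromosome 6, 32439842 to 32445046, plus strand) was at 1568 CPM in class II-high and 183 CPM in class II-low cells of HTO4+HTO8. CD74 (chromosome 5, 150401637 to 150412929, minus strand) gave 1935 of the 3217 score UMIs in class II-high cells and 493 of the 655 in class II-low cells of HTO4+HTO8. When cells were instead ranked by HLA-DRA and HLA-DPB1 alone, the genes left out still differed: CD74 was 2.59-fold higher in the high cells of HTO4+HTO8 and 2.55-fold in those of HTO4+HTO9, and HLA-DPA1 5.97-fold and 4.43-fold. When they were ranked by CD74 and HLA-DPA1, HLA-DRA was 5.71-fold and 5.64-fold higher, and HLA-DPB1 6.18-fold and 7.26-fold.

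A list of MHC transactivators, most of them regulators of class II genes, had a summed ratio nearer to 1 than the class II genes, and few UMIs. CIITA, the transactivator (chromosome 16, 10866222 to 10943021, plus strand), had 26 UMIs in class II-high and 5 in class II-low cells of HTO4+HTO8 (55.1 and 10.7 CPM, ratio 5.17, 1.95 to 17.2). In HTO4+HTO9 CIITA had 13 and 9 UMIs (48.5 and 41.0 CPM, ratio 1.18, 0.468 to 3.14). RFXANK, a subunit of RFX, had 44 and 25 UMIs in HTO4+HTO8 and 24 and 11 UMIs in HTO4+HTO9, ratios of 1.75 (1.05 to 2.98) and 1.79 (0.843 to 4.04). The other subunits RFX5 and RFXAP, and the NF-Y subunits NFYA, NFYB and NFYC, had 8 UMIs or fewer in the class II-high and in the class II-low cells of each pair. The list also holds NLRC5, which acts on MHC class I genes, with 14 and 10 UMIs in HTO4+HTO8 and 10 and 6 in HTO4+HTO9. Its last member, CREB1, had 16 and 16 UMIs, and 9 and 7. None of the 9 genes had enough UMIs to be compared singly. Summed over all 9, class II-high cells were at 280 CPM and class II-low cells at 177 CPM in HTO4+HTO8 (1.58, 1.19 to 2.11). In HTO4+HTO9 they were at 265 and 214 CPM (1.24, 0.845 to 1.83). At these counts a difference in CIITA within the interval of 0.468 to 3.14 was not detectable in HTO4+HTO9.

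The endosomal enzymes and carriers that prepare peptides had summed ratios above 1 but under 1.5-fold. Summed over 14 genes they were at 4085 CPM in class II-high and 3411 CPM in class II-low cells of HTO4+HTO8 (1.20, 1.12 to 1.28) and at 4067 and 3373 CPM in HTO4+HTO9 (1.21, 1.10 to 1.33). Of the 8 members compared, 8 had a ratio above 1 in HTO4+HTO8 and 7 in HTO4+HTO9, with median log2 ratios of 0.36 and 0.27 against 0.02 over all genes. CTSB, the protease cathepsin B, was the 1 member past 1.5-fold in both pairs, at 227 and 138 CPM in HTO4+HTO8 (1.64) and 216 and 100 CPM in HTO4+HTO9 (2.16). Of all 1447 genes, 3.66% were higher in both pairs. IFI30, an IFNg-induced reductase of lysosomes, had ratios of 1.37 (0.996 to 1.91) and 1.24 (0.785 to 1.99), and CTSS, the protease that trims the invariant chain, had 19 and 29 UMIs in HTO4+HTO8 and 19 and 16 in HTO4+HTO9.

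The MHC class I pathway, which shows peptides of the cell's own proteins to CD8+ T cells, also had a higher summed level in class II-high cells. Over 21 genes it was at a ratio of 1.60 (1.57 to 1.64) in HTO4+HTO8 and 1.39 (1.34 to 1.44) in HTO4+HTO9. Of 17 compared, 3 were higher in both pairs, 0 were lower and 14 were not called, with median log2 ratios of 0.66 and 0.38 against 0.02 over all genes. Over all 1447 genes 3.66% were called higher and 1.52% lower, so 0 lower says little in a list this small. HLA-B was at 5443 CPM in class II-high and 2599 CPM in class II-low cells of HTO4+HTO8 (2.09, 1.96 to 2.24), and at 4817 and 2699 CPM in HTO4+HTO9 (1.78, 1.62 to 1.97). HLA-F, a class I molecule of low abundance, had ratios of 1.82 (1.33 to 2.51) and 1.96 (1.18 to 3.34). HLA-C and HLA-E were past the limit in HTO4+HTO8 only, at 1.94 and 1.92, and stood at 1.44 and 1.42 in HTO4+HTO9. The light chain B2M had ratios of 1.48 and 1.29, and PSMB9, a subunit of the immunoproteasome, 1.44 and 1.41. HLA-B and HLA-C are similar in sequence, so reads may be split among them.

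Guanylate-binding proteins, chemokines and other IFNg effectors were at a summed ratio of 1.77 (1.70 to 1.84) in HTO4+HTO8 and 1.42 (1.35 to 1.49) in HTO4+HTO9, with 8 of 19 compared genes higher in both pairs and 0 lower. The shares over all 1447 genes were 3.66% higher and 1.52% lower. IDO1, the enzyme that starts the breakdown of tryptophan, was at 1718 CPM in class II-high and 626 CPM in class II-low cells of HTO4+HTO8 (2.74, 2.40 to 3.15). In HTO4+HTO9 IDO1 was at 2033 and 979 CPM (2.08, 1.77 to 2.44). TNFSF10, the death ligand TRAIL, was at 934 and 379 CPM in HTO4+HTO8 (2.46, 2.07 to 2.95) and 1242 and 446 CPM in HTO4+HTO9 (2.79, 2.22 to 3.53). The middle cells lay between for both genes: IDO1 was at 1194 CPM in HTO4+HTO8 and 1374 CPM in HTO4+HTO9, and TNFSF10 at 718 and 858 CPM. GBP5 had 71 UMIs in class II-high and 27 in class II-low cells of HTO4+HTO8 (2.62, 1.66 to 4.24), and 59 and 8 in HTO4+HTO9 (6.05, 2.88 to 14.7). Under a strict filter (1000 genes, 10% mitochondrial UMIs) that left 9 high and 9 low cells in HTO4+HTO8, the ratio there was 0.956 for IDO1 and 0.817 for TNFSF10.

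Not every IFNg effector followed that order. GBP1 had a ratio of 1.69 in HTO4+HTO8 and 0.845 in HTO4+HTO9, GBP4 of 1.88 and 1.18, and GBP2 of 1.26 and 1.11. The chemokine CXCL11, a ligand of CXCR3, was higher in both pairs at 3.32 (2.41 to 4.63) and 1.96 (1.41 to 2.74). CXCL10, another CXCR3 ligand, had ratios of 6.92 (5.03 to 9.72) and 1.84 (1.44 to 2.38), but 1 cell held 52.6% of its UMIs in class II-high cells of HTO4+HTO8 and 1 cell held 59.1% of those in class II-low cells of HTO4+HTO9. The other called members were TNFSF13B (BAFF, a survival factor of B cells; 1.65 and 1.94), VAMP5 (1.68 and 1.64) and LAP3 (a leucine aminopeptidase; 1.98 and 1.55).

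Genes induced by all interferons were at a summed ratio of 1.43 in both pairs (1.39 to 1.46 in HTO4+HTO8 and 1.38 to 1.48 in HTO4+HTO9). Of 37 compared, 7 were higher in both pairs and 0 lower, against 3.66% higher and 1.52% lower over all 1447 genes. RSAD2 (viperin) had ratios of 2.03 (1.23 to 3.42) and 2.46 (1.37 to 4.64), OASL 1.85 and 2.09, and IFIT2 1.61 and 3.74, while 1 cell held 41.6% of the IFIT2 UMIs in class II-high cells of HTO4+HTO9. The others were IFITM1, UBE2L6, OAS2 and ISG20, at 1.55 to 2.07. ISG15, the ubiquitin-like modifier, stood at 1.42 (1.33 to 1.52) and 1.71 (1.56 to 1.88). Signalling genes of the IFNg pathway, with 0 of 6 called, had summed ratios of 1.27 and 1.48, and IRF1, a transcription factor that IFNg induces, was at 1.34 (1.17 to 1.52) and 1.57 (1.32 to 1.86). Targets of NF-kB and TNFa, with 0 of 7 called, were at 1.22 and 1.15. Under the strict filter, in HTO4+HTO8, the summed ratio was 0.375 for the NF-kB and TNFa targets and 0.810 for the IFNg signalling genes.

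Serum amyloid A and complement genes were among the most different. SAA1 (chromosome 11, 18266174 to 18269977, plus strand), an acute-phase protein, was at 600 CPM in class II-high and 55.4 CPM in class II-low cells of HTO4+HTO8 (10.8, 7.23 to 16.9). In HTO4+HTO9 SAA1 was at 910 and 305 CPM (2.99, 2.27 to 3.97), and 1 cell held 53.7% of its UMIs in the class II-low cells. SAA2, its neighbour and near copy, was at 320 and 49.0 CPM in HTO4+HTO8 (6.53, 4.19 to 10.6) and at 332 and 54.6 CPM in HTO4+HTO9 (6.08, 3.31 to 12.2). Reads may be shared between SAA1 and SAA2, which makes the split between them uncertain. Under the strict filter, with 7 high and 7 low cells left in HTO4+HTO9, the ratios there were 0.469 for SAA1 and 0.746 for SAA2. CFB, complement factor B, had ratios of 2.18 (1.70 to 2.83) and 1.89 (1.29 to 2.81). C3 had 50 UMIs in class II-high and 13 in class II-low cells of HTO4+HTO8, and 24 and 10 in HTO4+HTO9, under the minimum. The whole list of 20 complement and acute-phase genes was at 1.96 (1.80 to 2.13) and 1.27 (1.14 to 1.41), with 3 of 8 compared genes higher and 0 lower. Among all 1447 genes 3.66% were higher and 1.52% lower.

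Several of the most different genes belonged to no list. NNMT (chromosome 11, 114257787 to 114313285, plus strand), which methylates nicotinamide, was at 816 CPM in class II-high and 262 CPM in class II-low cells of HTO4+HTO8 (3.11, 2.53 to 3.85), and at 1242 and 355 CPM in HTO4+HTO9 (3.50, 2.73 to 4.54). Its middle cells had 443 and 745 CPM, between the other groups in both pairs, and under the strict filter the ratio was 0.690 in HTO4+HTO8. SELENOM, a selenoprotein of the endoplasmic reticulum, had ratios of 2.34 (1.78 to 3.09) and 3.38 (2.27 to 5.19). PYCARD, the inflammasome adaptor ASC, had 2.37 (1.57 to 3.65) and 2.01 (1.17 to 3.57), and GSDMD, the pore-forming gasdermin D, 1.72 and 1.66. BEX3 had 2.04 and 2.65, TXNIP 1.73 and 1.62, and MDK (the growth factor midkine) 1.61 and 1.53.

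**Figure D4:**
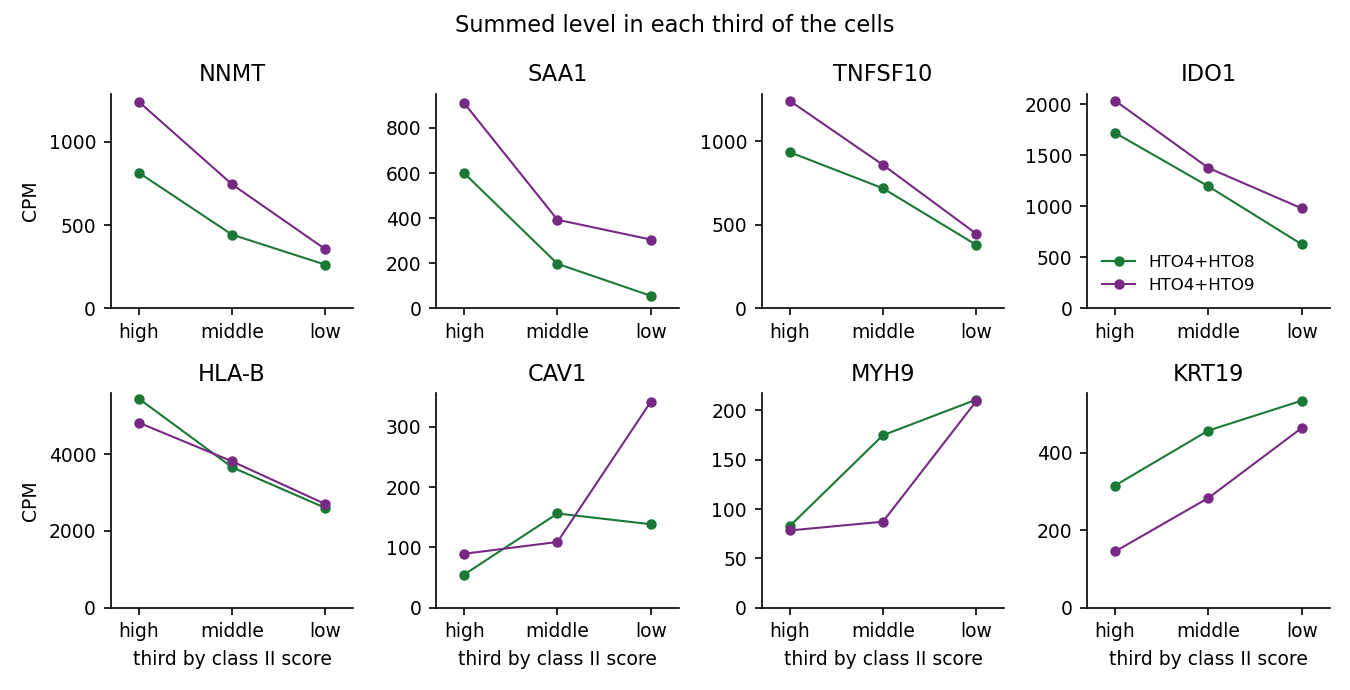
Summed level (CPM, linear axes from 0) of 8 genes in the high, middle and low cells by class II score, for HTO4+HTO8 (green) and HTO4+HTO9 (purple). Each point is 1 sum over the cells of a group; NNMT, SAA1, TNFSF10, IDO1 and HLA-B decline from high to low cells in both pairs, MYH9 and KRT19 climb, and CAV1 is lowest in high cells with its peak in middle cells of HTO4+HTO8 and in low cells of HTO4+HTO9.

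Of the 22 genes lower in class II-high cells, CAV1 and KRT19 were the members of a list. These calls depend on the cell filter: with up to 50% mitochondrial UMIs allowed, 1 of the 22 was still called lower, against 37 of the 53 higher genes still called higher. MYH9, the heavy chain of non-muscle myosin IIA (chromosome 22, 36281277 to 36388067, minus strand), was at 82.6 CPM in class II-high and 211 CPM in class II-low cells of HTO4+HTO8 (0.392, 0.263 to 0.573). In HTO4+HTO9 MYH9 was at 78.3 and 209 CPM (0.374, 0.212 to 0.640). CAV1, the coat protein of caveolae, was at 55.1 and 138 CPM in HTO4+HTO8 (0.398, 0.242 to 0.636) and 89.5 and 341 CPM in HTO4+HTO9 (0.262, 0.158 to 0.420). For CAV1, 1 cell held 44.0% of the UMIs in class II-low cells of HTO4+HTO9. AKAP12, a scaffold of protein kinase A, had ratios of 0.300 (0.160 to 0.533) and 0.294 (0.148 to 0.554), but 1 cell held 43.4% of its UMIs in class II-low cells of HTO4+HTO8 and 1 cell 56.4% of those in HTO4+HTO9.

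KRT19, a keratin of simple epithelia, was at 316 CPM in class II-high and 535 CPM in class II-low cells of HTO4+HTO8 (0.590, 0.479 to 0.726), and at 146 and 464 CPM in HTO4+HTO9 (0.313, 0.211 to 0.457). Under the strict filter KRT19 stood at 1.38 in HTO4+HTO8. KRT20, a keratin of gut epithelium, had ratios of 0.476 (0.326 to 0.686) and 0.475 (0.267 to 0.823). S100A4, a calcium-binding protein of motile cells, had 0.623 (0.522 to 0.743) and 0.297 (0.216 to 0.404). ANXA5 (annexin A5) had 0.522 and 0.555, TM4SF1 0.624 and 0.627, and TNFRSF12A, the receptor of TWEAK, 0.587 and 0.581. Among enzymes, TXNRD1 (thioredoxin reductase) had 0.505 and 0.472, PRKDC (the DNA-dependent protein kinase) 0.541 and 0.494, TST 0.566 and 0.458, and PIM3 0.592 and 0.626. For PIM3, 1 cell held 40.5% of the UMIs in class II-low cells of HTO4+HTO8. The cytokine MIF had 0.657 (0.587 to 0.735) and 0.598 (0.514 to 0.694), and the lipid carrier FABP5 0.495 and 0.603. ZNF292 had 0.568 and 0.458.

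The epithelial list as a whole was close to even, at 0.971 (0.914 to 1.03) in HTO4+HTO8 and 0.894 (0.821 to 0.974) in HTO4+HTO9, with KRT19 the 1 gene lower of 5 compared. KRT18 had ratios of 1.07 and 1.11, and KRT8 1.00 and 0.861. The mesenchymal and matrix list was at 1.06 and 0.855, with 1 gene higher and CAV1 lower of 6 compared. Glycolysis and hypoxia genes were at 0.852 and 0.876 with 0 of 7 called, and the 13 mitochondrially encoded genes at 0.995 and 0.997 with 0 of 13 called. With 3.66% of all 1447 genes called higher and 1.52% lower, such counts say little in lists this small.

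Summed levels of cell-cycle genes were lower in class II-high cells under the main settings, but a few cells held most of these UMIs and the direction turned under other settings. The 27 G2 and M phase genes were at 532 CPM in class II-high and 2081 CPM in class II-low cells of HTO4+HTO8 (0.256, 0.222 to 0.294), and at 425 and 1020 CPM in HTO4+HTO9 (0.417, 0.330 to 0.525). The 26 S phase genes were at 309 and 1084 CPM in HTO4+HTO8 (0.285, 0.236 to 0.344), and at 481 and 628 CPM in HTO4+HTO9 (0.766, 0.598 to 0.981). The 5 cells with the most held 65.3% of the G2 and M UMIs of class II-high cells and 78.0% of those of class II-low cells in HTO4+HTO8, and 55.3% and 85.7% in HTO4+HTO9. Over single cells the Spearman correlation of the G2 and M sum with the score was -0.11 in HTO4+HTO8 (197 cells) and 0.03 in HTO4+HTO9 (110 cells), values too weak to read in counts this sparse. Cells with 10 or more S, G2 and M UMIs per 10000 numbered 9 of the class II-high and 17 of the class II-low cells of HTO4+HTO8, and 7 and 8 in HTO4+HTO9. With them left out, and the remaining cells ranked again, 45 genes were higher and 17 lower in both pairs. Of the 53 and 22 genes called under the main settings, 43 and 11 were compared here, and 27 and 7 were called again. The G2 and M ratio was then 1.01 in HTO4+HTO8 and 1.19 in HTO4+HTO9. This alternative was added after the values had been seen. Under the strict filter the G2 and M ratio was 2.86 in HTO4+HTO8 and 2.66 in HTO4+HTO9, and the S phase ratio 2.69 and 1.12. In HTO4+HTO9 the S phase ratio was also above 1 when the highest and lowest of 4 groups of cells were compared (1.57), when cells were ranked by HLA-DRA and HLA-DPB1 (1.54), with up to 50% mitochondrial UMIs (1.06) and without the cells rich in cell-cycle genes (1.12).

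The summed level of 20 secretory differentiation genes (such as AGR2, TFF1 and S100P) was also lower, with 63 UMIs in class II-high and 137 in class II-low cells of HTO4+HTO8 (0.457, 0.334 to 0.621) and 17 and 46 in HTO4+HTO9 (0.303, 0.163 to 0.539). None of them had enough UMIs to be compared, and the 5 cells with the most held 71.4% of the UMIs of class II-high cells in HTO4+HTO8 and 64.7% in HTO4+HTO9.

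**Figure D5:**
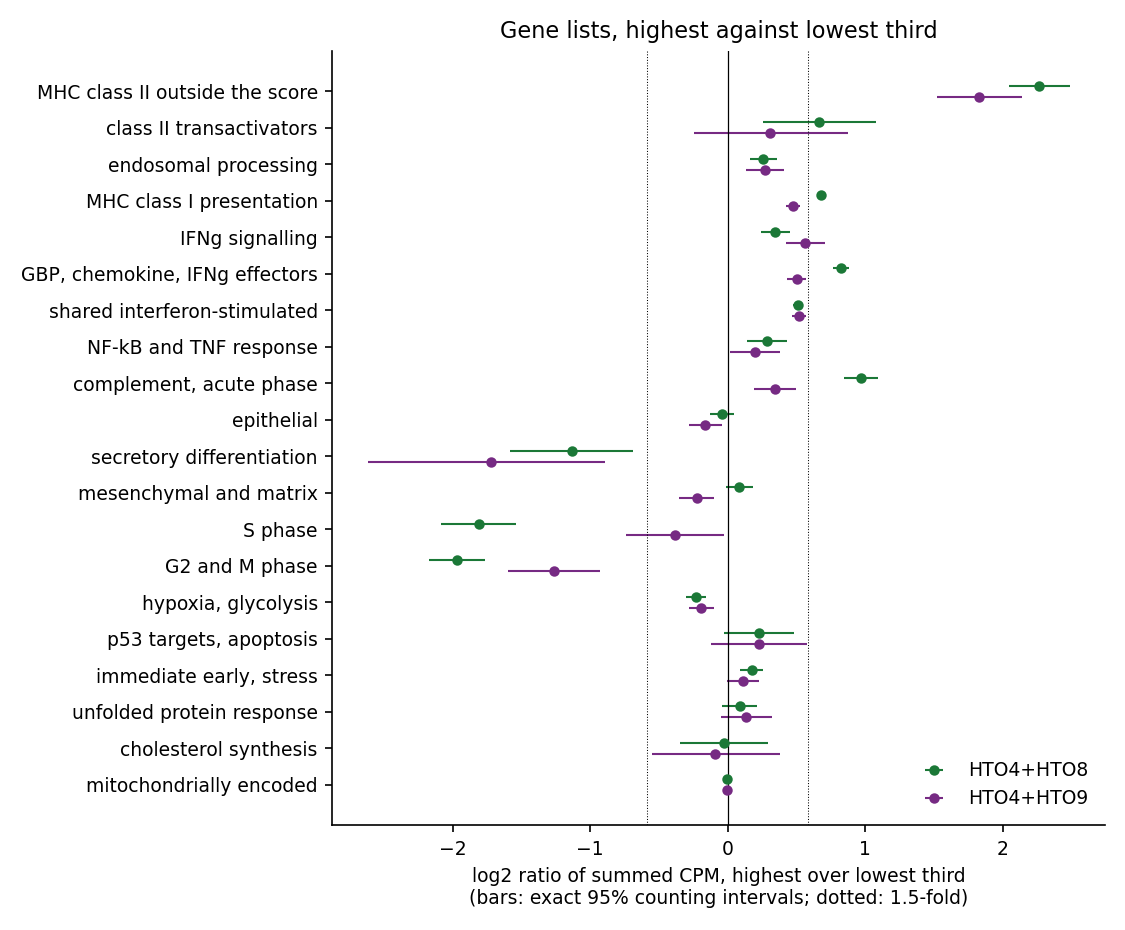
Log2 ratio of summed CPM in class II-high over class II-low cells for 20 gene lists (rows), in HTO4+HTO8 (green) and HTO4+HTO9 (purple). The row of class II transactivators also holds NLRC5 and CREB1. Points are sums over all members of a list, bars are exact 95% counting intervals and dotted lines mark 1.5-fold; the class II genes outside the score lie farthest to the right, and the S phase, G2 and M phase and secretory lists to the left.

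Markers of cell types that carry class II at all times were at or near 0 in these cells. The cells were sorted from a human line grown in mice, and human genes were counted. Low counts of human immune markers therefore say little about cells of the mouse host. Of 15 macrophage and dendritic cell markers, CSF1R, CD163, ITGAM, ITGAX, FCGR3A, AIF1, CD1C, CLEC9A, CLEC10A and LAPTM5 had 0 UMIs in all 307 cells, and the list summed to 15 UMIs in class II-high and 33 in class II-low cells of HTO4+HTO8, and 17 and 5 in HTO4+HTO9, of which most were CD68. Of 10 B cell markers, MS4A1 and CD79A had 0 UMIs, and the list summed to 3 UMIs in class II-high cells and 5 in class II-low cells over both pairs. T and NK cell markers summed to 4 and 11, endothelial markers to 3 and 3, and fibroblast markers to 3 and 4. The leukocyte list summed to 131 and 126, of which RAC2 gave 113 and 109, while PTPRC (CD45) had 1 UMI in class II-high cells and 0 in class II-low cells. Carcinoma epithelial markers summed to 3254 and 3157 UMIs, so the label of an epithelial tumour cell held for both groups.

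The same split was made in the 3 hashtag pairs with the next highest scores, which share no cells with the pairs above, though HTO2+HTO8 and HTO2+HTO9 share a hashtag with them and all share the library. Class II genes outside the score were at 403 CPM in high and 43.9 CPM in low cells of HTO3+HTO6 (124 cells; ratio 9.17, 5.36 to 16.9), at 665 and 203 CPM in HTO2+HTO8 (185 cells; 3.27, 2.69 to 4.001), and at 545 and 61.4 CPM in HTO2+HTO9 (241 cells; 8.87, 6.72 to 11.9). Class I genes were at ratios of 1.46, 1.42 and 1.72, IFNg effectors at 1.39, 1.70 and 2.295, genes of all interferons at 1.41, 1.31 and 1.57, and complement and acute-phase genes at 1.62, 1.58 and 2.22. G2 and M phase genes were at 0.547, 0.158 and 0.463 and secretory genes at 0.198, 0.136 and 0.320. These lists had their ratio on the same side of 1 as in HTO4+HTO8 and HTO4+HTO9, while others did not: mesenchymal genes were at 0.727, 0.619 and 0.588, against 1.06 in HTO4+HTO8, and unfolded protein response genes at 1.25, 0.896 and 0.934, against 1.06 and 1.10. Single genes also varied. In HTO3+HTO6, where counts were low, IDO1 was at 0.833 (0.327 to 2.06), CXCL11 at 0.361 (0.0356 to 2.02) and GBP5 at 0.542 (0.00918 to 10.4). In HTO2+HTO8 and HTO2+HTO9, IDO1 was at 2.41 and 5.15, CXCL11 at 1.85 and 2.23, and GBP5 at 3.57 and 4.53. Whether any ratio differed between the pairs was not tested, and the transactivator list stood at 0.870, 1.496 and 1.29.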

How the data were processed

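Single-cell gene expression and hashtags were measured in 1 pooled droplet library of OVCAR5 tumour cells. The authors deposited raw UMI counts as whole numbers, with no normalisation: 36601 genes and 10 hashtags by 9083 barcodes. Per the file headers the counting tool was Cell Ranger 5.0.1; the submitters' processing notes list version 2.1.1 and the build GRCh38. No label or header names the annotation. Gene coordinates came from GENCODE 29, which held 34616 of the identifiers, and promoter windows came from RefSeq (84 of 119 named genes had one).

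Barcodes were assigned, filtered, scored and split into 3 groups as the report states. Counts were summed over the cells of each group and divided by the UMIs of all genes outside the score. Ratios have exact 95% intervals, conditional on the summed count, which cover counting error only; PCR and cell-to-cell spread are not in them, and there was no replicate library. No doublet caller was run: barcodes that failed the ratio of 4 between the second hashtag and the next were left out, and doublets within a pair cannot be seen. Named genes were all class II and transactivator genes, the 4 members with the most UMIs of each other list, and the 15 higher and 15 lower called genes with the largest ratio in their weaker pair; others (C3, CTSB, CTSS, IFI30, GBP1, GBP2, GBP4, CXCL10, HLA-C, HLA-E, HLA-F, PSMB9, the remaining called list members, TXNIP, MDK, GSDMD, MIF and single markers) were chosen after their values were seen. The members and all 28 lists were chosen with earlier results of these data known. A few of the named genes are not reported here singly. The script was tested on simulated data. Columns of other samples numbered 0. Scripts used pandas 2.3.3, scipy 1.17.1, numpy 2.4.6 and matplotlib 3.10.9 under Python 3.11.15. Alternatives covered scaling, minimum counts, fold, the split, cell filters, thinning, depth bins, the score genes, the hashtag ratio and leaving out each pair.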

Additional observations from a re-analysis of the deposited data

Results flagged for a closer look

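Of the 1447 genes compared, 5 went past 1.5-fold in opposite directions in the hashtag pairs, and the difference between the pairs was not tested for any of them. LCN2 (lipocalin 2, an iron-binding acute-phase protein) had a log2 ratio, class II-high over class II-low cells, of 1.27 in HTO4+HTO8 and -0.97 in HTO4+HTO9, where 1 class II-low cell held 70.9% of its UMIs. DNPEP (an aspartyl aminopeptidase) had 0.68 and -1.08. ADM (the peptide hormone adrenomedullin) had 0.64 and -0.89. BCLAF1 had -0.59 and 0.91, and CCDC90B -0.62 and 0.71. Each of DNPEP, BCLAF1, ADM and CCDC90B had 94 UMIs or fewer in any group of cells.

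Hashtag HTO10, which no rule used, had 405 counts over the cells of HTO4+HTO8 and 221 over those of HTO4+HTO9, above the limit of 3 that a count of 0 allows. The median was 2 counts per cell in HTO4+HTO8 and 1.5 in HTO4+HTO9 and the maximum 10, while HTO1, also unused, had 1 and 0 counts.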

How the results depend on the processing

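The lone library limits every value: counts of few molecules in few cells, with no replicate behind them. No paired analysis was possible because there was 1 library and no test. Summed class II genes outside the score stayed above 2.5-fold in both pairs under all settings that gave a value. They were at 3.43 (HTO4+HTO8) and 2.60 (HTO4+HTO9) with the cells cut into 2 groups, 4.47 (HTO4+HTO9) with the highest of 4 groups against the lowest, 6.30 (HTO4+HTO8) under the strict filter of 1000 genes and 10% mitochondrial UMIs, and 4.10 (HTO4+HTO8) when cells were ranked by HLA-DRA and HLA-DPB1.

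The counts of called genes, 53 higher and 22 lower, moved by more than 1.5 times in several settings. They were 16 and 3 with a minimum of 200 UMIs, 206 and 305 with a minimum of 10 UMIs, 13 and 4 with a 2-fold limit, 18 and 4 under the strict filter, and 28 and 9 with cells thinned to 4000 UMIs. Higher genes numbered 184 with up to 50% mitochondrial UMIs (the looser filter), where 37 of the 53 and 1 of the 22 genes were still called, and 33 when ranked by HLA-DRA and HLA-DPB1. Called from 1 pair alone, 159 to 226 genes were higher and 102 to 248 lower. In the other settings 37 to 61 were higher and 15 to 25 lower, but they were not all the same genes. Called again in those settings were 26 to 50 of the 53 and 7 to 22 of the 22. The numbers were 26 and 7 with the cells cut into 2 groups, where all 53 and 22 were compared. Under the strict filter 12 of the 53 and 2 of the 22 were compared, and 7 and 0 were called again.

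The strict filter left 27 cells of HTO4+HTO8 and 22 of HTO4+HTO9, so 9 and 7 cells per group. Under it ratios crossed 1 in HTO4+HTO8 for the G2 and M list (2.86), the S phase list (2.69), the IFNg signalling list (0.810), the NF-kB and TNFa list (0.375), NNMT (0.690), TNFSF10 (0.817), IDO1 (0.956), AKAP12 (1.06), TXNRD1 (1.23), PRKDC (1.34), TST (2.12), KRT19 (1.38), FABP5 (1.34) and TM4SF1 (1.06), and in HTO4+HTO9 for the G2 and M list (2.66), the S phase list (1.12), the transactivator list (0.791), SAA2 (0.746), SAA1 (0.469) and KRT20 (2.13). In HTO4+HTO9 they also crossed 1 under the looser filter for CAV1 (1.01), TNFRSF12A (1.38), FABP5 (1.02) and TM4SF1 (1.45), and with thinned cells for TNFRSF12A (1.26) and TM4SF1 (1.51). Without cells rich in cell-cycle genes the G2 and M list was at 1.01 (HTO4+HTO8) and 1.19 (HTO4+HTO9), and in HTO4+HTO9 TNFRSF12A was at 1.53 and TM4SF1 at 1.01. The cause was not tested. Over all settings, 21 of 728 ratios of named genes and 64 of 494 ratios of lists lay on the other side of 1 from the reported value, 16 of the 64 under the strict filter. The other lists among these had reported ratios of 0.852 to 1.17. The minimum in middle cells, the removal of cell-cycle-rich cells and the removal of each gene's highest cell were added after the data had been seen.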
